A study of Mus musculus with 18 samples.

Results

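Nuclear RNA of control mouse embryonic stem cells was compared between 3 h and 6 h of actinomycin D, the later span of a transcription block. The comparison rests on 4 of the 18 libraries in the series, 2 at each time, and on the 17900 of 54446 annotated genes that passed the filter on low counts. The cells were C57BL/6 mouse embryonic stem cells, labelled Ythdc1 Control, grown in serum with LIF, CHIR99021 and PD0325901. Actinomycin D was given at 5 µg/ml to cells that had been cultured for 48 h, and total RNA of the nuclear fraction was sequenced after ribosomal RNA removal. The control at 0 h (2 libraries without a chase) and the libraries labelled Ythdc1 cKO (conditional knockout) at 3 h and 6 h (2 each) serve as reference for where the later span differs. Nothing in the labels says that the libraries of a group came from separate cultures, so p-values reflect only how these libraries differ among themselves, possibly for technical reasons.

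Actinomycin D binds DNA and stops RNA polymerases, so that RNA made before the drug is left to decay, mature or leave the nucleus. Without new synthesis, the share of each RNA in the nucleus depends on how fast it is lost relative to the others. Short-lived messages are largely gone early in such a chase, and stable RNAs make up more and more of what remains. A level here is CPM, gene reads scaled to the library's total and its TMM factor, so a gene that rose gained share relative to the typical gene and need not have become more abundant.

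The 3 h libraries held 13287263 and 15012343 gene reads, and the 6 h libraries 9638107 and 12239266. Gene reads per spike-in read were 910.9 and 906.8 at 3 h and 774.3 and 772.0 at 6 h, after 1257 and 1296 at 0 h, so the groups did not overlap. Reads on more than 1 gene, which the counting leaves out, rose from 5.57% and 5.71% of uniquely placed reads to 10.12% and 10.23%. Reads that matched no counted feature were 24.53% and 23.14% at 3 h and 21.05% and 21% at 6 h, after 50.06% and 49.72% at 0 h. The 95% Wilson interval of the first 3 h value, which covers counting error only, was 24.51% to 24.54%. This class can hold intron reads of annotated genes where only exons are counted, so its reads need not lie outside genes. Embryonic stem cell markers summed to 3214 and 3399 CPM at 3 h and 3597 and 3685 CPM at 6 h, with all 8 detected. Fibroblast feeder markers (8 of 8 found in the table, 5 tested) summed to 10.96 and 13.31 CPM and then 20.45 and 18.36 CPM. Some of these markers were at 0 in both 6 h libraries, so the sums rest on few genes. Markers of primitive endoderm, with Sox7 at 0, summed to 8.61 and 9.57 and then 6.10 and 8.19 CPM.

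Between 3 h and 6 h, 3580 genes rose (20.0% of those tested) and 3317 fell (18.5%), by edgeR's quasi-likelihood test with Benjamini-Hochberg adjusted p below 0.05. A change of at least 2-fold was called for 414 genes upward (2.31%) and 672 downward (3.75%). Libraries of the groups did not overlap for 11801 genes (65.9%). With 2 libraries per group such separation is frequent even without a change, so by itself it is weak evidence. The median change of all genes was 0.01 on the log2 scale under TMM, -0.14 when only library size was used and -0.38 when libraries were scaled to spike-in reads. Under library size alone 2211 genes were called higher and 4807 lower, so the higher share of the calls went from 51.9% to 31.5%. Under spike-in scaling 812 were higher (4.54% of those tested) and 7326 lower (40.9%), a higher share of 9.98%. Changes below are relative to the TMM scale unless the spike-in value is given. Counts of list members called are to be read beside the 20.0% higher and 18.5% lower of all genes tested.

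Among called protein-coding and long noncoding genes with a mean of 50 counts or more, a conventional symbol and groups that did not overlap, the lowest changes were in histone genes, mitochondrially encoded messages and zinc finger genes. Changes beyond theirs were called among short RNAs, from -3.23 for Snord98 to 3.5 for Snord85. Hist1h4k, a histone H4 gene (chr13:21750194-21750505, GRCm38, minus strand), stood at 13.9 and 13.9 CPM at 3 h and 3.05 and 2.70 CPM at 6 h. It had been at 60.3 and 53 CPM at 0 h, and no 6 h library came near a 3 h library. Its change was -2.28 (SE 0.19, n = 2 per group, edgeR adjusted p = 1.96e-12), a level 4.85-fold lower. Hist1h4a, another H4 gene (chr13:23760692-23761230), fell from 37.4 and 36.5 to 9.83 and 6.75 CPM, a change of -2.18 (SE 0.15). mt-Nd1, a subunit of respiratory complex I encoded by mitochondrial DNA (chrM:2751-3707), fell from 389.8 and 258.8 to 80.4 and 73.1 CPM, a change of -2.08 (SE 0.19). mt-Cytb, cytochrome b of complex III, fell from 255 and 234 to 68.9 and 76.1 CPM, a change of -1.75 (SE 0.07).

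Zinc finger genes took 6 of the 12 lowest places. Zfp958 (chr8:4613167-4630231, plus strand) fell from 12 and 11.4 to 2.60 and 2.97 CPM, a change of -2.06 (SE 0.20). Zfp518a (chr19:40894705-40917947) fell from 72.2 and 62.1 to 16.3 and 17.3 CPM, a change of -2.0 (SE 0.10). Zfp534, Zfp120, Zfp977 and Zfp994 fell by 1.99, 1.95, 1.80 and 1.76. The remaining genes among the lowest were Lrif1, a partner of heterochromatin proteins, at -1.87 (SE 0.23), and Krcc1 at -1.75 (SE 0.22). Krcc1 had no called change in the first 3 h (-0.31), and its level went from 10.9 and 9.44 CPM at 3 h to 3.39 and 2.70 CPM at 6 h.

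Among those genes the highest change was that of Ccdc107, at 9.49 and 12.1 CPM at 3 h and 70.4 and 69.2 CPM at 6 h, a change of 2.68 (SE 0.26). Its exons overlap those of Rmrp, the RNA of RNase MRP, so its reads cannot be assigned to either gene with certainty. Rpl38, a protein of the large ribosomal subunit (chr11:114668524-114672331), rose from 164 and 178 to 478 and 487 CPM, a change of 1.5 (SE 0.06, edgeR adjusted p = 1.15e-20), or 2.82-fold. Rps16 of the small subunit (chr7:28350652-28353155) rose from 287 and 269 to 721 and 720 CPM, a change of 1.37 (SE 0.05). Rps28 rose by 1.25 (SE 0.09), though its exons overlap those of Kank3. Lsm4, a ring protein that binds the U6 small nuclear RNA, rose from 101 and 101 to 235 and 242 CPM, a change of 1.24 (SE 0.08). Phlda2, an imprinted gene, rose by 1.25 (SE 0.15) and Itgb7, an integrin subunit, by 1.39 (SE 0.11).

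Genes at lower levels were also among the highest. Jun, a transcription factor of the AP-1 complex, rose from 7.28 and 9.31 to 20.7 and 22.6 CPM, a change of 1.38 (SE 0.15); its exons overlap the antisense gene Junos. Ier5, an immediate early gene, rose by 1.29 (SE 0.23), Adamts8, a secreted metalloprotease overlapping Gm29724, by 1.49 (SE 0.23), and Dynlt1a, a dynein light chain overlapping Tmem181a, by 1.26 (SE 0.21). Myc stood at 4.19 and 3.93 CPM at 3 h and 10.8 and 9.81 CPM at 6 h, after 32.8 and 33.1 CPM at 0 h. Its later change was 1.34 (SE 0.18), so its 6 h libraries lay above the 3 h libraries and below the 0 h libraries.

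**Figure D1:**
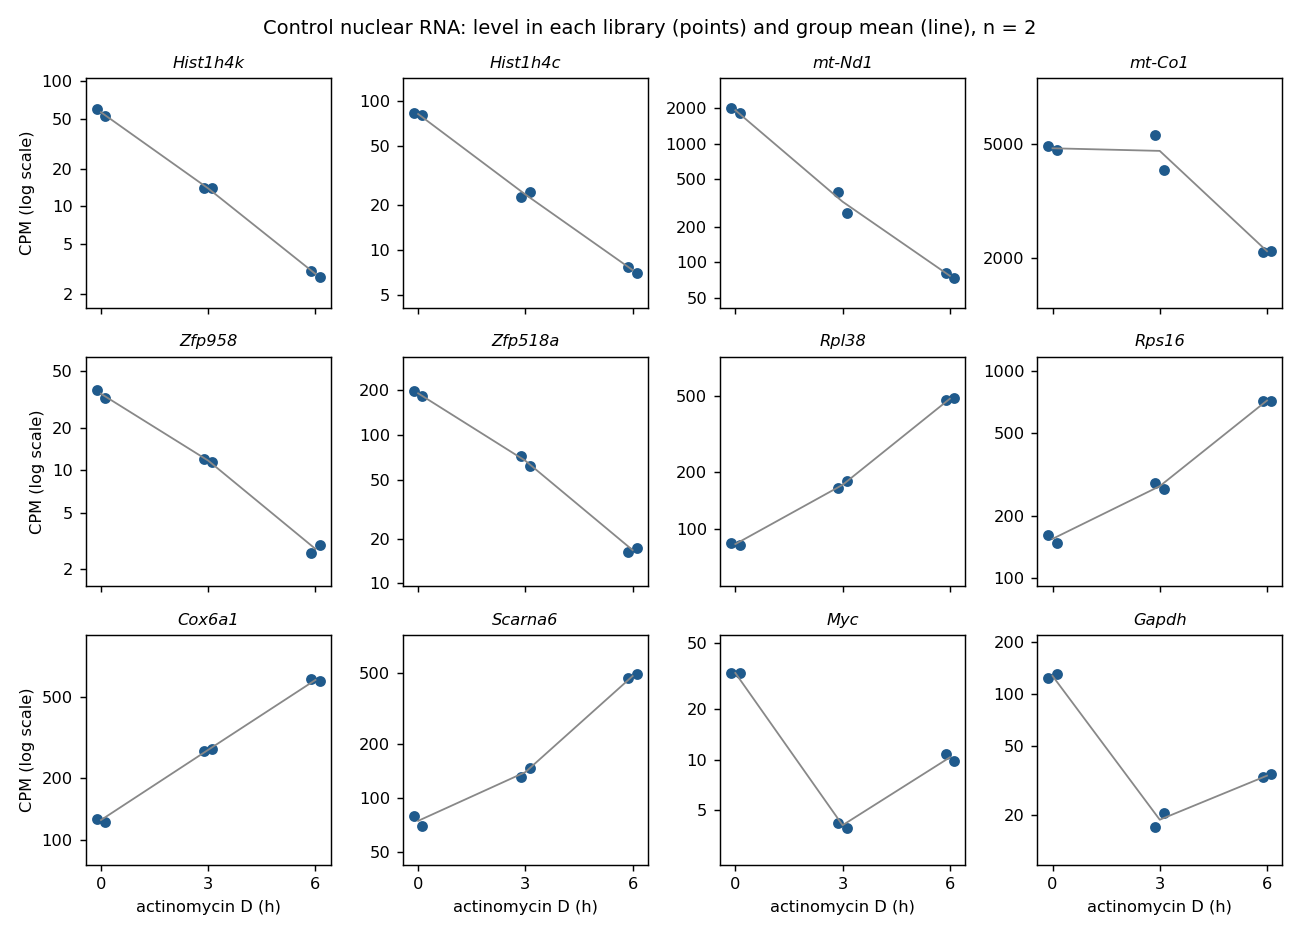
Level of 12 genes in each control library (points, CPM on log axes that differ between panels) against hours of actinomycin D, with a line through the group means (n = 2). Hist1h4k and Zfp958 fell over both spans, Rpl38 and Scarna6 rose over both, and Myc and Gapdh were lowest at 3 h.

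Replication-dependent histone genes fell as a group. Their messages end in a stem-loop in place of a poly(A) tail and are known for a short life outside S phase. Of 67 annotated genes 62 were tested, and 41 fell, 1 rose and 20 were not called, with a median of -1.02 against 0.01 for all genes. The member that rose was Hist1h4i (0.56). All 67 genes together summed to 557.7 and 558.3 CPM at 3 h and 284.9 and 281.5 CPM at 6 h, after 3457 and 3471 CPM at 0 h, and the times did not overlap. In the first 3 h, 61 of the 62 fell, with a median of -2.94, where 27.1% of all genes tested fell and 29.3% rose. The later change was less negative than the earlier one, by the contrast of the spans, for 45 members, and more negative for 1. Their median GC content was 57.8%, and with GC-corrected offsets, an alternative chosen after seeing the data, 43 fell and 0 rose.

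Hist1h4c (chr13:23697635-23698454, minus strand) fell from 22.6 and 24.4 to 7.68 and 6.93 CPM, a change of -1.69 (SE 0.13), and Hist1h4h (chr13:23531050-23531519, plus strand) fell from 24.1 and 24.5 to 8.13 and 8.19 CPM, a change of -1.57 (SE 0.13). Hist1h1d, a linker histone gene (chr13:23553262-23560686, plus strand), fell from 281 and 289 CPM at 0 h to 19.6 and 17.2 CPM at 3 h, and to 11.1 and 11.3 CPM at 6 h. Its changes were -3.96 over the first span and -0.71 (SE 0.11) over the second, a difference of 3.24. With GC-corrected offsets the later change of Hist1h1d was -0.17 and did not pass. The stem-loops of these genes are printed because they set the group apart from other messages; they come from GENCODE M21 transcripts, 26 bases each, with capitals on the bases that match the stem-loop pattern on the transcript strand: GG, 2 free bases, CTTTT, 1 free base, AG, 2 free bases and CC.
Hist1h4c: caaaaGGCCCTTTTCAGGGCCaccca
Hist1h4h: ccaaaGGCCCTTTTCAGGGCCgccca
Hist1h1d: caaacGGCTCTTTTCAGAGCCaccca
The letters of the loop and of the flanks are nearly the same in all 3, and the stem differs in Hist1h1d. The pattern was found in any transcript of 0.481% of the 14147 protein-coding genes tested. It was found in 40 of the 62 histone genes, of which 28 fell and 1 rose with a median of -1.06, and in the 22 without it in their annotated transcripts 13 fell and 0 rose with a median of -0.94. Another 28 protein-coding genes hold the letters, and of those 5 fell and 7 rose. Replacement histones, which are made outside S phase from polyadenylated messages, had no common direction: 4 of 11 rose and 3 fell, with a median of -0.02. H2afv rose by 0.56 (SE 0.06) and H2afj by 0.59 (SE 0.10), while H3f3b fell by 0.26 (SE 0.05) and was at 0.05 with GC-corrected offsets.

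Messages of the mitochondrial genome also fell. They are made by the mitochondrial RNA polymerase and are read in a nuclear preparation only from mitochondria that stay with the nuclei. Of 13 such genes 10 were tested, 7 fell and 0 rose, with a median of -1.42. Their summed level was 6673 and 4990 CPM at 3 h and 2485 and 2482 CPM at 6 h, after 9981 and 9360 CPM at 0 h, so the 3 h libraries differed between themselves but stayed above both 6 h libraries. mt-Co1, a catalytic subunit of complex IV, made up most of this sum at 6 h. It stood at 4906 and 4755 CPM at 0 h, 5395 and 4064 CPM at 3 h and 2099 and 2113 CPM at 6 h. Its early change was -0.03 and its later change -1.17 (SE 0.12). Genes of this genome have nuclear copies, and reads that align to several places were not counted. The median of the list with GC-corrected offsets was -0.66, with 5 members lower and 0 higher.

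Zinc finger genes of the Zfp series, most of them encoding DNA-binding repressors with arrays of C2H2 fingers, formed the largest list that fell. Of 394 annotated genes 364 were tested, and 154 fell (42.3%), 27 rose (7.42%) and 183 were not called, with a median of -0.47. Their summed level was 9062 and 8468 CPM at 3 h and 7182 and 7231 CPM at 6 h. In the first span 279 had fallen and 15 had risen, with a median of -0.88, where 27.1% of all genes tested fell and 29.3% rose. Zfp292 fell from 188 and 179 to 90.5 and 85.3 CPM, a change of -1.07 (SE 0.06), and Zfp978 fell by 1.32 (SE 0.10). With GC-corrected offsets 97 fell and 14 rose, and the median was -0.18, a smaller count than in the main analysis by over 1.5 times.

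The fingers of such arrays are joined by a conserved linker. A coding stretch of Zfp958 from base 737 to 834 of its longest transcript is shown, since that gene had the lowest change of the Zfp genes named here. Capitals mark 2 matches to the linker pattern, which is AC, GG, GA, AA and CC with 1 free base between neighbours.
Zfp958: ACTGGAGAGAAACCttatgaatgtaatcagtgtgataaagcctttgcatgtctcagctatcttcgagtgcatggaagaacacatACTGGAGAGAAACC
The stretch has 41.8% GC. At least 1 match on the transcript strand was found in the longest transcript of 3.28% of the protein-coding genes tested. Among the Zfp genes, 162 held at least 5 matches, and of these 83 fell (51.2%) and 3 rose, with a median of -0.68. The 102 with 1 to 4 matches had 44 lower and 9 higher and a median of -0.36, and the 100 with no match had 27 lower and 15 higher and a median of -0.09. The median GC content was 40.6%, 45.5% and 49.4% in the same order, and the medians with GC-corrected offsets were -0.24, -0.19 and -0.07.

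Small nucleolar RNAs and Cajal body RNAs rose. They guide chemical modification of ribosomal and spliceosomal RNA, are mostly cut out of introns and are held in stable particles in the nucleus. Of 1558 annotated genes 319 had a read in the 4 libraries and 170 were tested. Of those tested 76 rose (44.7%), 3 fell and 91 were not called, with a median of 1.17, or 1.19 with the 7 members that were at 0 in both 6 h libraries set to a floor of 3 counts over the group and the 3 at 0 in all 4 left out. A low member could pass the filter through the 6 h libraries alone, so the share and median of those tested may include members admitted because they were high there. All 1558 genes together summed to 9015 and 13699 CPM at 3 h and 28116 and 28347 CPM at 6 h, after 7276 and 4754 CPM at 0 h. The groups did not overlap, and the pair at 3 h differed more than the pair at 6 h. With spike-in scaling 60 rose and 7 fell with a median of 0.78, and with GC-corrected offsets 72 rose and 2 fell with a median of 1.21.

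The rise ran through the families. Of 39 Snord genes, the box C/D class that guides methylation, 20 rose and 1 fell, with a median of 1.33 after -2.22 in the first span. Of 15 Snora genes, the box H/ACA class that guides pseudouridylation, 9 rose and 0 fell, with a median of 1.59. Of 15 genes annotated as scaRNA, 10 rose and 0 fell, with a median of 0.98. Small nuclear RNA genes, the RNA of spliceosomal particles, had 17 higher (25%, against 20.0% of all genes) and 2 lower of 68 tested. The other 49 were not called, and the median was 0.95. In the libraries labelled cKO 10 were higher and 5 lower over this span, with a median of 0.34. These genes are short and often multi-copy, and reads that align to several places were not counted, so levels are those of the unique parts.

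Scarna6 had the smallest p-value of the list. It stood at 78.9 and 69.7 CPM at 0 h, 132 and 147 CPM at 3 h and 472 and 492 CPM at 6 h, so the 3 times did not overlap. Its later change was 1.79 (SE 0.07, n = 2 per group, edgeR adjusted p = 3.29e-21), or 3.46-fold, and its early change 0.91. Gm25395, annotated as scaRNA on the same strand of the same chromosome, rose from 220 and 232 to 460 and 473 CPM, a change of 1.05 (SE 0.06). Both lie within Atg16l1, an autophagy gene, outside its exons; the change of Atg16l1 was 0.28 over the second span and -1.19 over the first. Gm22009, inside the nuclear import gene Kpna4, rose by 0.80 (SE 0.08), while Kpna4 fell by 0.41. The sequences of Scarna6 (chr1:87784556-87784820, plus strand) and Gm25395 (chr1:87776938-87777209, plus strand) are given from GENCODE M21 because both lie within the same host. The boxes marked in them are not particular to that host, since Gm22009 holds the same letters near its ends. Capitals mark TGATGA, the letters of a C box, near the 5′ end and CTGA, those of a D box, near the 3′ end.
Scarna6: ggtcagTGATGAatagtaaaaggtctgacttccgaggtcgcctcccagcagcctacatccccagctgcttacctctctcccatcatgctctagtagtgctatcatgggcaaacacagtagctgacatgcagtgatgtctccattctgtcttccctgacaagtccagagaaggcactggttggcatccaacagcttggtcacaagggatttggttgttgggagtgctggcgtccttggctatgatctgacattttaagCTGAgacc
Gm25395: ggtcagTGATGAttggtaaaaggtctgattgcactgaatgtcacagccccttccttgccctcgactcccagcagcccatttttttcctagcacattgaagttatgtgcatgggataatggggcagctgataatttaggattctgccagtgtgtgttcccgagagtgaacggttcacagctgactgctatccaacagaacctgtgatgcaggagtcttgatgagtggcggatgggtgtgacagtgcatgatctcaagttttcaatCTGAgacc

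The genes that hold these RNAs had no common direction. Of the 170 tested, 152 lie within a tested gene on the same strand, in 122 host genes. Where several genes held the same short RNA, tested genes were taken first, then protein-coding ones, then the shortest. Noncoding hosts such as Snhg3 were thus passed over for a coding gene around the same short RNA, so the host values may include genes that are not its source. Of these hosts 38 rose, 40 fell and the median was -0.02, whereas the 152 short RNAs had 66 higher and 3 lower and a median of 1.16. The later change of the short RNA was above that of its host for 125 of the 152. The 18 outside such genes had 10 higher and a median of 1.21. Of 18 noncoding host genes from the Snhg group and its relatives 4 rose (22.2%) and 2 fell (11.1%), beside 20.0% and 18.5% of all genes. Their median was 0.08, after a median of -1.57 in the first span. Dancr rose from 12.2 and 17.7 to 30.2 and 35.0 CPM, a change of 1.12 (SE 0.13), and Snhg15 rose by 0.78 (SE 0.10), while Snhg3 fell by 1.05 (SE 0.11). All 3 have exons that overlap snoRNA genes.

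**Figure D2:**
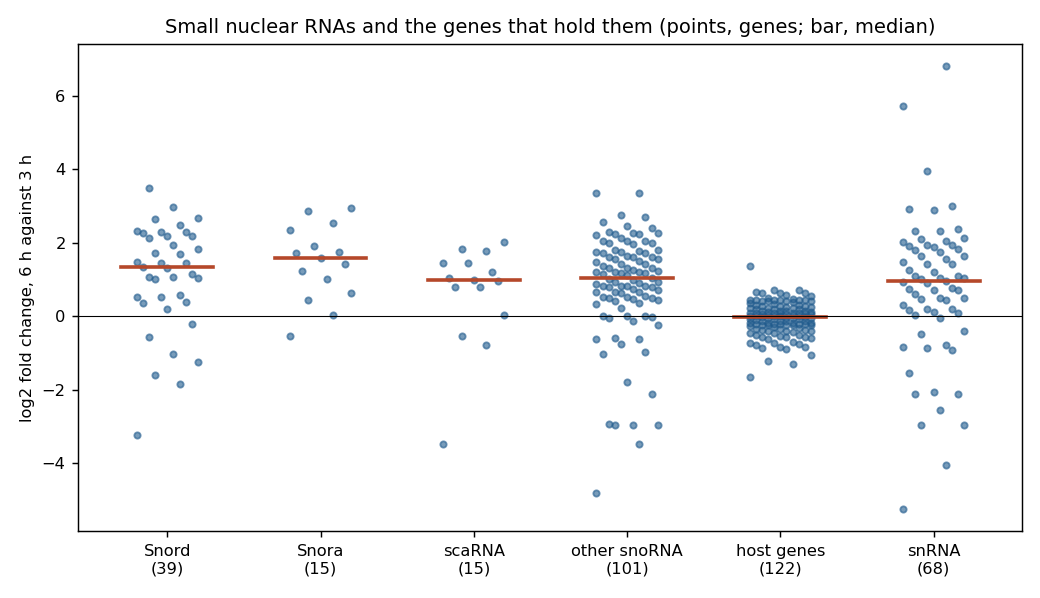
Later change (log2, 6 h against 3 h) of each tested short RNA gene, of the genes that hold snoRNAs and scaRNAs, and of snRNA genes (points), with the median as a bar and the number of genes in brackets. Medians of the snoRNA and scaRNA classes lie between 0.98 and 1.59, and that of the host genes at -0.02.

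Of 10 genes tested in the list of other structural RNAs 3 were called. Terc, the RNA template of telomerase, rose from 66.2 and 97.8 to 186 and 165 CPM, a change of 1.09 (SE 0.19, edgeR adjusted p = 0.00364). Rn7sk, the RNA that holds the elongation factor P-TEFb inactive, stood at 5360 and 5124 CPM at 0 h, 11584 and 11737 CPM at 3 h and 10006 and 9717 CPM at 6 h, so that it gained share early (1.15) and fell later by 0.24 (SE 0.03). In that list 2 rose and 1 fell, with a median of 0.75, and 0.36 with spike-in scaling; the second that rose, Lars2 (0.82), is a protein-coding gene.

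Cytosolic ribosomal protein messages gained share, as did those of the respiratory chain encoded in the nucleus. These are abundant, short messages with long lives in most cells. Of 85 ribosomal protein genes 50 rose, 12 fell and 23 were not called, with a median of 0.37 on the TMM scale and -0.02 with spike-in scaling. Their summed level went from 33760 and 36355 CPM at 3 h to 44998 and 45822 CPM at 6 h, after 21635 and 21354 CPM at 0 h. Rps29 rose from 205 and 185 to 418 and 412 CPM, a change of 1.09 (SE 0.06). Of 83 respiratory chain genes 51 rose and 7 fell, with a median of 0.34, and -0.05 with spike-in scaling. Cox6a1, a subunit of complex IV, rose from 273 and 278 to 615 and 597 CPM, a change of 1.14 (SE 0.07). Uqcr11 of complex III rose by 0.95 (SE 0.07), and Cox4i1 by 0.93 (SE 0.05). With GC-corrected offsets 42 ribosomal protein genes were higher and 13 lower, and 50 respiratory chain genes higher and 7 lower. With spike-in scaling the balance turned, with 24 ribosomal protein genes higher and 34 lower and 24 respiratory chain genes higher and 30 lower.

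Enzymes of glycolysis and proteins of the secretory pathway followed. Of 19 glycolytic genes 16 rose and 0 fell, with a median of 0.37, whereas 3 rose and 6 fell with spike-in scaling, with a median of -0.02. Pkm, pyruvate kinase, rose from 1867 and 1977 to 3031 and 3068 CPM, a change of 0.67 (SE 0.05), Pfkl, a phosphofructokinase, by 0.58 (SE 0.06) and Aldoa, an aldolase, by 0.45 (SE 0.05). Of 33 chaperones and secretory genes of the endoplasmic reticulum 20 rose and 5 fell, with a median of 0.20, whereas 9 rose and 18 fell with spike-in scaling, with a median of -0.20. Hyou1 rose from 837.3 and 854.7 to 1479 and 1537 CPM, a change of 0.83 (SE 0.05), and Calr, calreticulin, by 0.77 (SE 0.04). Of 16 endoderm and basement membrane genes 9 rose and 0 fell, with a median of 0.60, while summed markers of primitive endoderm were under 10 CPM in every library. Lamc1, a laminin chain, rose by 0.60 (SE 0.04), Sparc by 0.64 (SE 0.05) and Col4a1 by 0.88 (SE 0.07).

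Messages of some large complexes split. Of 37 proteasome genes 15 rose and 11 fell, with a median of -0.01, after 33 had risen and 0 fallen in the first span. In that first span 29.3% of all genes tested rose and 27.1% fell. Psmd3, of the regulatory cap, rose from 359 and 378 to 668 and 674 CPM (0.86, SE 0.05), while Psma1, of the core, fell from 144 and 144 to 93.5 and 88.3 CPM (-0.66, SE 0.07). Among 64 translation factors 23 rose and 19 fell. Eif4g1, a scaffold of cap binding, rose from 1733 and 1789 to 2596 and 2620 CPM (0.57, SE 0.04), and Eif3e fell from 212 and 212 to 111 and 116 CPM (-0.90, SE 0.07), a change that was -0.14 and not called with GC-corrected offsets. Mitochondrial ribosomal protein genes had 19 higher and 22 lower of 77. Ribosome biogenesis genes had 17 higher and 5 lower of 30, with a median of 0.16, but 5 higher and 16 lower with a median of -0.24 under spike-in scaling. Nhp2, a protein of H/ACA particles, rose by 0.70 (SE 0.05), and Gnl3, a nucleolar GTPase whose exons overlap snoRNA genes, fell by 0.91 (SE 0.07).

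**Figure D3:**
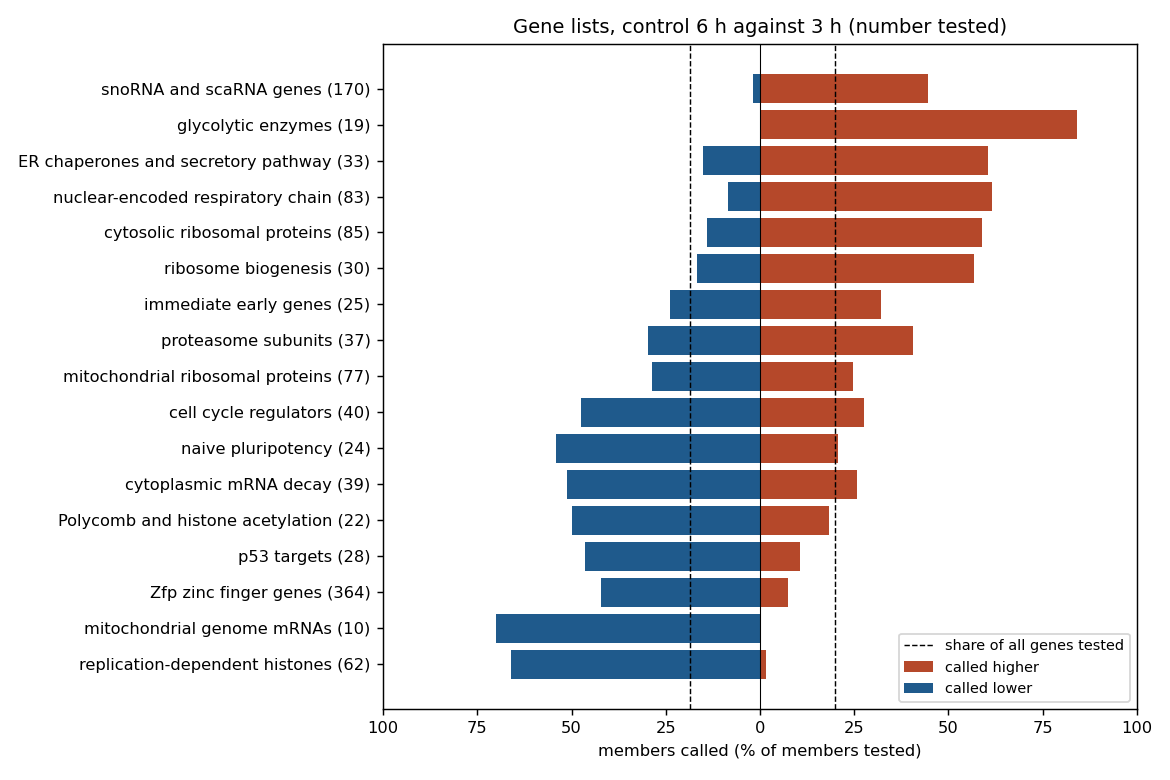
Share of the tested members of each gene list called higher (right) or lower (left) at 6 h against 3 h, with the number tested in brackets and dashed lines at the shares of all genes tested, 20.0% and 18.5%. Histones, mitochondrial messages and Zfp genes lie to the left, and ribosomal, respiratory, glycolytic and snoRNA genes to the right.

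Lists of pluripotency genes held calls in both directions. Of 24 genes of the naive state 5 rose and 13 fell, with a median of -0.15, and of 14 core factors 4 rose and 7 fell. Of 13 genes of the formative and primed states 3 rose and 0 fell, with a median of 0.20 that was -0.19 with spike-in scaling. Nanog fell from 693 and 716 to 528 and 535 CPM, a change of -0.41 (SE 0.05), whereas Pou5f1 rose from 262 and 318 to 393 and 424 CPM, a change of 0.49 (SE 0.07) that was 0.10 and not called with spike-in scaling. Klf5 fell by 0.86 (SE 0.07). Nodal, a signal of the TGF-beta family, fell from 32.4 and 29.1 to 18.3 and 15.5 CPM (-0.87, SE 0.09), after 197 and 192 CPM at 0 h, and Fgf4 fell from 81.2 and 88.8 to 45.1 and 49.9 CPM (-0.84, SE 0.07), after 382 and 364 CPM. Dppa5a rose by 0.54 (SE 0.05).

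Polycomb and acetylation genes had 4 higher and 11 lower of 22, with a median of -0.21. Rnf2, the catalytic subunit of Polycomb repressive complex 1, fell from 74.6 and 61.6 to 33.4 and 34.0 CPM (-1.01, SE 0.09), and Eed and Suz12 of complex 2 fell by 0.68 and 0.56. Genes of H3K9 methylation had 4 higher and 11 lower of 19, with a median of -0.27, but 6 higher and 4 lower with GC-corrected offsets, with a median of -0.03. Trim28, the corepressor recruited by zinc finger repressors, rose from 1564 and 1576 to 2892 and 2948 CPM (0.90, SE 0.05), while Resf1 fell from 168 and 149 to 85.0 and 77.9 CPM (-0.96, SE 0.07). DNA methylation genes had 7 higher and 2 lower of 13, and 2 higher and 6 lower with spike-in scaling, with Uhrf1 at 0.58 (SE 0.05), Dnmt3a at 0.59 (SE 0.06) and Dnmt1 at 0.44 (SE 0.05).

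Of 28 p53 target genes 13 fell and 3 rose, with a median of -0.29; Eda2r fell by 0.78 (SE 0.08) and Ccng1 by 0.60 (SE 0.06). Of 39 genes of cytoplasmic mRNA decay 20 fell (51.3%) and 10 rose (25.6%), with a median of -0.18. With GC-corrected offsets 11 fell and 8 rose, with a median of -0.05. Cnot2, of the CCR4-NOT deadenylase, fell by 0.90 (SE 0.08) and Upf1, the helicase of nonsense-mediated decay, rose by 0.70 (SE 0.07). Of 40 cell cycle genes 19 fell (47.5%) and 11 rose (27.5%), with a median of -0.14. With GC-corrected offsets 16 fell and 11 rose, with a median of -0.04. Cdk1 fell from 194 and 203 to 118 and 120 CPM (-0.74, SE 0.06). Mcm2, of the replicative helicase, rose by 0.54 (SE 0.05). Immediate early genes had 8 higher and 6 lower of 25, with a median of 0.19 after -1.14 in the first span. Their median was -0.20 with spike-in scaling (4 higher, 8 lower) and -0.08 with GC-corrected offsets (5 higher, 7 lower).

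Genes of the m6A pathway went both ways. Ythdc1, the nuclear reader that the series deletes, stood at 145 and 132 CPM at 0 h, 51.9 and 50.3 CPM at 3 h and 51.3 and 47.2 CPM at 6 h. Its early change was -1.44 and its later change -0.05 (SE 0.09, edgeR adjusted p = 0.667), but it was called higher at 0.62 with GC-corrected offsets and lower at -0.45 with spike-in scaling. Mettl3, the catalytic subunit of the writer, was at 29.3 and 30.3 CPM and then 26.3 and 26.6 CPM, a change of -0.17 (SE 0.11) that did not pass, and -0.56 and called with spike-in scaling. Of 14 writers and erasers 2 rose (14.3%) and 4 fell (28.6%), beside 20.0% and 18.5% of all genes tested. Wtap, a regulatory subunit of the writer, fell from 51.7 and 47.7 to 22.1 and 25.4 CPM (-1.06, SE 0.09). Cbll1, also of the writer complex, fell by 1.43 (SE 0.21). Of 14 readers 2 rose (14.3%) and 6 fell (42.9%), with Ythdf2 at -0.71 (SE 0.08). With GC-corrected offsets 3 rose and 3 fell in each of these lists, and the medians went from -0.10 to 0.03 for writers and erasers and from -0.12 to 0.11 for readers.

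Long noncoding RNAs of the nucleus were mixed, with 4 higher (13.8%) and 7 lower (24.1%) of 29, beside 20.0% and 18.5% of all genes. Malat1, of nuclear speckles, stood at 8203 and 7836 CPM at 3 h and 5867 and 6063 CPM at 6 h (-0.43, SE 0.04), after no called change in the first span. Neat1, the scaffold of paraspeckles, fell from 56.4 and 48.3 to 42.1 and 40.4 CPM (-0.34, SE 0.07), having already fallen from 212 and 208 CPM at 0 h. Kcnq1ot1, which overlaps Kcnq1, fell from 364 and 330 to 210 and 200 CPM (-0.76, SE 0.05), and Firre, an X-linked RNA, rose from 207 and 194 to 319 and 338 CPM (0.71, SE 0.06). Genes annotated as still to be experimentally tested had 138 lower (14.3%, against 18.5% of all genes) and 24 higher of 968, with a median of -0.33. With GC-corrected offsets 41 were lower and 55 higher, with a median of 0.03. Antisense genes had 33 higher (9.24%) and 7 lower (1.96%) of 357, both below the shares of all genes. With spike-in scaling 13 were higher and 31 lower. No source used here gives the strand setting of the counting, and their reads cannot be told apart from those of the genes they overlap.

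The later span differed from the first for 5433 genes by the contrast of the spans, which share the 3 h libraries: the later change was more positive for 2471 (13.8%) and more negative for 2962 (16.5%). Among protein-coding and long noncoding genes with a mean of 50 counts or more and a conventional symbol, the largest differences upward were those of Myc (4.36), Zfp296 (3.72), Gapdh (3.61), Trib1 (3.59), Hist1h1d (3.24) and Dancr (3.19). Gapdh, a glycolytic enzyme often used as a reference gene, stood at 123 and 131 CPM at 0 h, 17.1 and 20.4 CPM at 3 h and 33.0 and 34.4 CPM at 6 h. It thus lost share first (-2.76) and then rose by 0.84 (SE 0.11); it has many pseudogenes and an overlapping neighbour, Iffo1. Actb, another reference gene, was at 1639 and 1680 CPM and then 1796 and 1769 CPM, a change of 0.10 that did not pass, with -0.06 under library size alone and -0.29 with spike-in scaling. Trib1, a pseudokinase, rose by 0.96 (SE 0.23), and Zfp296 at 0.49 (SE 0.23) did not pass.

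Under the same limits the largest differences downward were those of Platr15 (-3.20), Egln3 (-2.86), Cacna1h (-2.82), Gjb5, Rbm24 and Acot13 (-2.62 each). These were low genes that had gained share in the first span. Platr15, a noncoding RNA of pluripotent cells, went from 0.759 and 1.30 CPM at 0 h to 12.1 and 13.8 CPM at 3 h and 17.3 and 16.6 CPM at 6 h, a later change of 0.38 that was -0.01 with spike-in scaling. Egln3, an oxygen-sensing prolyl hydroxylase, went from 3.58 and 4.89 to 10.9 and 12.8 and back to 4.29 and 4.68 CPM, a later change of -1.40 (SE 0.20). Gjb5, Rbm24 and Acot13 fell by 1.42, 1.19 and 1.07, and Cacna1h at -0.20 did not pass. Without replicate 2 of the control at 3 h, 3517 genes differed between spans in place of 5433.

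The base composition of the messages moved with the later change. Among 14147 protein-coding genes, those called higher had a median GC content of 54.5% in their longest transcript, those called lower 43.6%, and those not called 50.3%. Split into equal parts by GC content, the lowest part (up to 46.9%) had 187 higher and 2247 lower of 4720, with a median of -0.35. In the middle part 1097 rose and 554 fell of 4719 (median 0.07), and in the highest (above 53.3%) 1939 rose and 177 fell of 4708 (median 0.32). Spearman's rho between GC content and change across these genes, which share their libraries and are not independent, was 0.56 for the later span, 0.27 for the first and 0.42 for the later span of the libraries labelled cKO. With GC-corrected offsets 2854 genes were higher (15.9%) and 2255 lower (12.6%), of which 2053 and 1607 were calls of the main analysis, 15 main calls went from higher to lower and 133 from lower to higher. Of the 94 called genes named here, 45 moved by over 1.5 times or changed sign with these offsets, and 43 of them became smaller. Whether the relation follows from the cells or from the libraries was not tested.

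**Figure D4:**
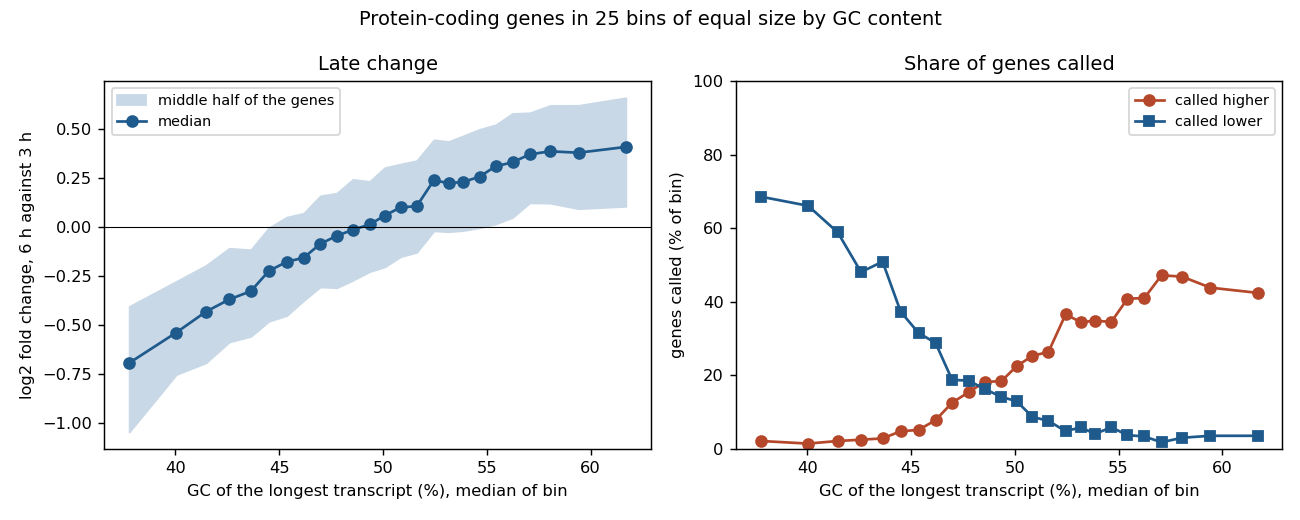
Later change (left, median and middle range of the genes, log2) and share of genes called (right, %) for protein-coding genes in 25 equal bins by GC content of the longest transcript. The median went from -0.69 in the lowest bin to 0.41 in the highest, and the share called lower from 68.6% to 3.53%.

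Exon number and AU-rich letters were also set against the change. Within the middle part by GC content, the genes with most exons had 482 higher and 100 lower of 1498, and those with fewest 300 higher and 231 lower of 1593, with medians of 0.13 and 0.01. The nonamer TTATTTATT, a core of AU-rich elements, was searched on the transcript strand of annotated 3′ untranslated regions longer than 25 bases and found in 7.82% of 13974 genes. Of the 1093 with it 172 rose and 319 fell (median -0.09), and of the 12881 without it 3028 rose and 2623 fell (median 0.03). Within the lowest part by GC content the medians were -0.34 with it and -0.35 without it, in the middle part both were 0.07, and in the highest they were 0.27 and 0.33.

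The later change differed between the libraries labelled cKO and the control for 3443 genes by the interaction term, more positive in cKO for 1523 (8.51%) and more negative for 1920 (10.7%). The targeted gene Ythdc1 was at 143 and 120 CPM in the libraries labelled cKO at 0 h, near the control, and at 14.5 and 15.3 CPM at 3 h and 19.16 and 18.7 CPM at 6 h. These libraries had 3604 and 3676 gene reads per spike-in read at 3 h and 541.6 and 529.3 at 6 h, and spike-in scaling gave 16097 differing genes. Histones fell less in cKO: the difference was positive for 21 of 62 and negative for 1, with a cKO median of -0.20. snoRNA and scaRNA genes rose in cKO as well (91 higher and 1 lower of 170, median 1.44), with the difference positive for 8 and negative for 7. Among all genes tested, 15.3% rose and 18.8% fell in cKO over the later span. Ribosomal protein genes split, with 27 positive and 30 negative of 85; Rps29 changed by 2.42 in cKO and by 1.09 in control.

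**Figure D5:**
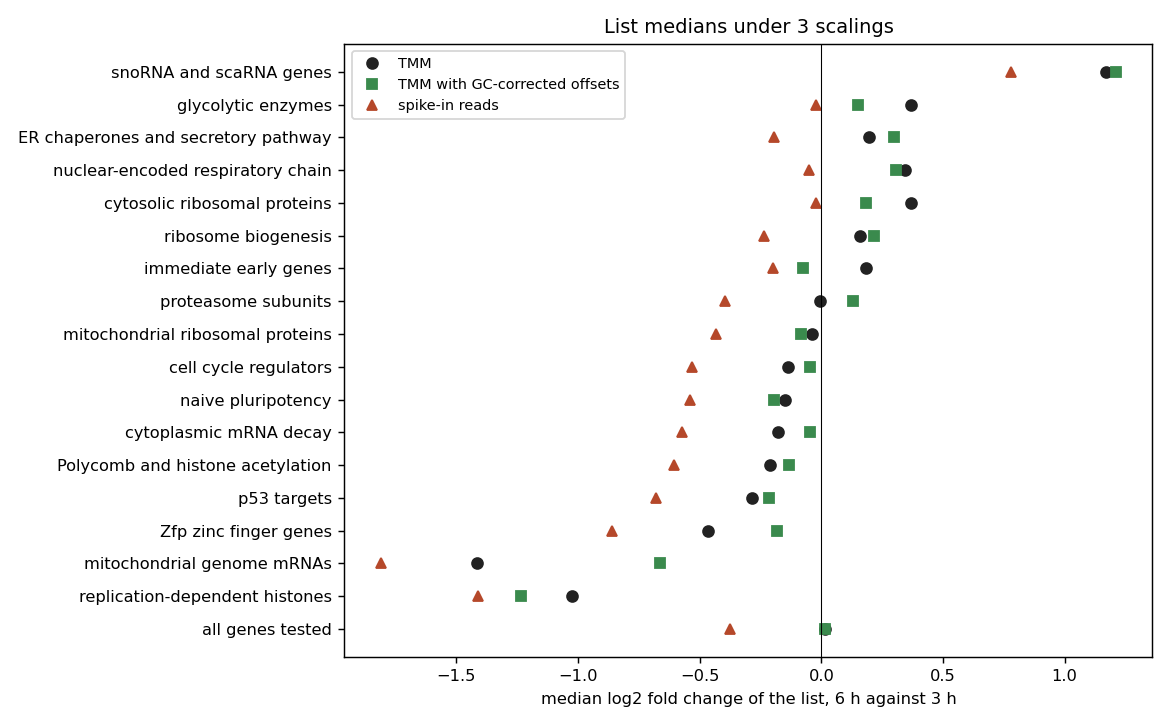
Median later change (log2, 6 h against 3 h) of all genes tested and of each gene list with TMM (circles), with GC-corrected offsets (squares) and with scaling to spike-in reads (triangles). Spike-in scaling put the median of all genes at -0.38, and the snoRNA and scaRNA genes remained above 0 under each.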

How the data were processed

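Total RNA of the nuclear fraction was measured by sequencing, with 0.1 µl of ERCC spike-in RNA added per sample before ribosomal RNA removal, per the labels' protocols. The values that the authors deposited are HTSeq counts of reads on each gene, with no normalization. Per the submitters' processing notes, the tools were HTSeq, HISAT2 2.1.0, Trimmomatic 0.38 and CASAVA, and the build mm10. No source used here gives the strand setting or the gene models. Of 54446 gene rows, 54409 were found in GENCODE M21 (GRCm38), the same build.

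All 12 Ythdc1 libraries (6 groups of 2) were fitted in edgeR 4.0.16 with TMM factors, a minimum count of 10 and robust quasi-likelihood F tests. The filter on counts passed a gene on any 2 of these libraries, whichever group they came from. Benjamini-Hochberg adjustment ran over all 17900 genes, and genes below 0.05 were called. Changes are log2 fold changes, and the standard error (SE) is the change divided by the square root of F. The 92 spike-ins and 5 summary rows entered no test. The 48 gene lists, the members and the tests were chosen with earlier results of these data known. Genes were named by rule: the 12 highest and 12 lowest calls (coding or long noncoding, mean count 50 or more, conventional symbol, groups apart), up to 3 called members per list by p, the 6 highest and 6 lowest differences between spans (same limits on class, count and symbol), and Ythdc1, Mettl3, Neat1, Malat1, Pou5f1, Nanog, Gapdh and Actb. The rule gave 165 genes, of which part are printed. Hist1h4i, Atg16l1, Kpna4, Snord85 and Snord98 were named outside it after their values were seen.

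The biological coefficient of variation was 6.52%. Tested on simulated counts for this comparison (17900 genes, 200 changed), the fit recovered 99% of 2-fold and 78% of 1.5-fold changes, with 6 unchanged genes called. The changed genes were drawn only from those above a floor of expected counts. All genes had the same dispersion, and all libraries the same profile apart from these changes. The simulation held no GC trend, so its recovery and error need not hold for these data or for low genes. Alternatives were other scalings, filters, fitted libraries, tests (DESeq2 1.42.0 among them), the replicate number as a block and each library left out; GC-corrected offsets (lowess span 0.3) were chosen after seeing the data.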

Additional observations from a re-analysis of the deposited data

Results flagged for a closer look

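Genes named above are given here when their change from 3 h to 6 h differed between the libraries labelled cKO and the control by the interaction term of edgeR (adjusted p below 0.05, 2 libraries per group), as it did for 3443 genes in all. Values in brackets are the cKO change minus the control change on the log2 scale. Above the control stood mt-Co1 (1.80), Hist1h4k (1.76), Zfp958 (1.58), Zfp977 (1.36), Zfp296 (1.35), Rps29 (1.33), Snhg3 (1.28) and Hist1h4a (1.18). A second group above it held Rps28 (1.11), Hist1h4c (1.03), Zfp518a (1.02), Lrif1 (0.95), Resf1 (0.95), Zfp292 (0.91), Egln3 (0.85) and Eif3e (0.84). More positive in cKO were also Rn7sk (0.83), Acot13 (0.82), Actb (0.72), mt-Cytb (0.65), Cnot2 (0.64), Klf5 (0.49), Zfp978 (0.47) and Psma1 (0.43). To these came Ythdf2 (0.42), Ythdc1 (0.39), Dppa5a (0.31), Gnl3 (0.29) and H3f3b (0.26). Below the control stood Ccdc107 (-2.97), Pkm (-1.52), Pou5f1 (-1.43), Lars2 (-1.15), Dynlt1a (-1.10), Myc (-0.94), Adamts8 (-0.92) and Uqcr11 (-0.91). A second group below it held Firre (-0.84), Rps16 (-0.83), Col4a1 (-0.77), Dnmt3a (-0.76), Nhp2 (-0.74), Jun (-0.71), Uhrf1 (-0.69) and Lsm4 (-0.68). More negative in cKO were also Eif4g1 (-0.62), Scarna6 (-0.60), Rpl38 (-0.59), Hyou1 (-0.59), H2afv (-0.55), Lamc1 (-0.52), Snhg15 (-0.49) and Mcm2 (-0.35). Smaller differences downward were those of Dnmt1 (-0.35), Gm25395 (-0.34), Pfkl (-0.33), Nodal (-0.33) and Calr (-0.33).

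Reads on more than 1 gene, which enter no gene's count, averaged 10.18% of uniquely placed reads in the control at 6 h, above the 3 h and 0 h libraries of the control. Their part in the changes of genes with overlapping neighbours was not tested.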

How the results depend on the processing

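The calls of 3580 higher and 3317 lower genes became 2211 and 4807 with library size alone, 812 and 7326 with spike-in scaling, 1937 and 1959 when tested against a 1.2-fold change, 2956 and 2674 with the DESeq2 Wald test, and 2854 and 2255 with GC-corrected offsets, chosen after seeing the data. Without the filter on low counts 2626 were higher and 3803 lower, and with the 4 compared libraries alone 3233 and 3068. Changes of at least 2-fold (1086 genes) numbered 2193 with spike-in scaling, 646 when 50 reads in 2 libraries were required, which tests fewer genes, and 660 with GC-corrected offsets. Differences between cKO and control (3443) numbered 16097 with spike-in scaling and 1481 against 1.2-fold. The cause of these shifts was not tested.

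With each library left out in turn, 2526 to 3559 genes were higher, 2686 to 3535 lower and 802 to 1201 changed at least 2-fold. The contrast of the spans (5433) ranged from 3517, without replicate 2 of the control at 3 h, to 5835, and cKO minus control from 2354 to 3741. The labels do not say whether same-numbered libraries belong together. The correlation of their deviations over all genes tested was 0.012 between 3 h and 6 h. It cannot decide this, since counting noise in low genes enters it. The replicate block gave 3647 higher and 3367 lower.

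Among the 99 genes printed of the 165 that the rule gave, direction reversed for H3f3b (0.047 with GC-corrected offsets), Ythdc1 (0.62 with GC-corrected offsets), Platr15 (-0.011 with spike-in scaling) and Actb (-0.056 with library size alone, -0.29 with spike-in scaling, -0.018 with GC-corrected offsets). Cacna1h, not called, ranged from -0.46 to 0.024 with each library left out. Direction and call held for 90 of the 99 with spike-in scaling and for 93 with GC-corrected offsets. These genes were named mainly for the size or p-value of their change, so these counts do not describe all genes. Of the 3580 genes called higher in the main analysis, 812 stayed higher with spike-in scaling and 155 went to lower. All 3317 called lower stayed lower, but this was nearly fixed in advance. Spike-in scaling shifted genes downward together, with the median of all genes going from 0.01 to -0.38, so it is no check on the lower calls. Depth limits low genes: few reads back a change in genes near 50 counts, and 2 libraries per group limit the precision of all.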
